A study of Mus musculus with 4 samples.

Results

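Oxidative phosphorylation subunit genes are the nuclear genes for the proteins of the respiratory chain and the ATP synthase in the inner mitochondrial membrane. They were taken as the autosomal protein-coding genes of GENCODE M21 (mouse build mm10) whose symbols begin Nduf with a, b, c, s or v and a digit, Sdha to Sdhd, Uqcr, Cox with a digit from 4 to 8, or Atp5. With 1 entry per symbol, and 1 further symbol of these patterns left out by the rule, 80 of 20780 autosomal protein-coding genes were members. Complex I had 35 members, complex II 4, complex III 8, complex IV 16 and complex V 17. The rule uses symbols and no measured value. Ndufa4 stays here with complex I by its symbol, although its protein is found with isolated complex IV, and Atp5s encodes a coupling factor rather than a structural subunit of the ATP synthase.

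Binding of CTCF was measured by ChIP-seq, which sequences the DNA pulled down with an antibody to the protein, in gastrocnemius, a large calf muscle, of adult female B6CASTF1/J mice aged 2 months, a first-generation hybrid of the B6 and CAST strains. Pool E and pool F each combined 2 tissue samples and had 2 technical replicates, which were merged in every deposited list. The peaks come from whole tissue, so the cell types that carried a given peak cannot be told apart, and neither can the parental copies. The conservative list, which rests on both pools, held 42163 peaks, the combined list 49649, that of pool E 50899 and that of pool F 33784; read depth is unknown.

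The respiratory chain passes electrons from NADH through complex I, or from succinate through complex II, to ubiquinone, then through complex III and cytochrome c to complex IV, which reduces oxygen. Complexes I, III and IV pump protons, and complex V uses their return flow to make ATP. Skeletal muscle relies on this pathway for sustained work, and its oxidative fibres hold more mitochondria than its glycolytic fibres. CTCF, which recognises a directional motif through its zinc fingers, lies at many promoters and, with cohesin, holds the bases of chromosome loops.

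The sequences below lie under or just beside the summits, the points of highest signal of a peak, that carry the results. Each is read from the RefSeq assembly GRCm38.p6 in the direction of the CTCF motif, with its mm10 position and strand, and the capitals mark the best match to the 14-base CTCF consensus within 50 bp of the summit. The first set lies at summits within 500 bp before the starts of subunit genes, and the Uqcrc1 stretch runs past its start.
Ndufc1, chr3:51409018-51409057, minus strand: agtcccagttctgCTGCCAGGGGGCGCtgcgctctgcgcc
Ndufa6, chr15:82354417-82354456, plus strand: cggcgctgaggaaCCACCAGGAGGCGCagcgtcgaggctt
Uqcrc1, chr9:108936608-108936637, plus strand: cttgctgcCCAACAGGGGGCGActgagcac
Ndufb10, chr17:24724483-24724522, minus strand: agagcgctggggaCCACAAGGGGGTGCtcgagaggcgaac
Atp5k, chr5:108434450-108434489, minus strand: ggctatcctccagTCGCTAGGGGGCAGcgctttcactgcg
Ndufv2, chr17:66101873-66101912, minus strand: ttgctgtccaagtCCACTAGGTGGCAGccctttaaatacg
The second set shows strong sites beyond 1000 and within 5000 bp of the starts, 1 or more for complexes I to IV.
Cox6a1, chr5:115347767-115347806, minus strand: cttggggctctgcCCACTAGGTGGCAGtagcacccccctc
Uqcrfs1, chr13:30549050-30549089, minus strand: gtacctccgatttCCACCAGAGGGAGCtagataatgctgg
Ndufs7, chr10:80245811-80245850, minus strand: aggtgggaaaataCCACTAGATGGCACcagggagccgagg
Ndufa7, chr17:33827047-33827086, minus strand: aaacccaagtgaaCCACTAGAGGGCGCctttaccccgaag
Sdhb, chr4:140964763-140964802, plus strand: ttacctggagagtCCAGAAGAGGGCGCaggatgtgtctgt
Cox7a1, chr7:30181484-30181523, plus strand: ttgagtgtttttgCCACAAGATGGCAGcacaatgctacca
The third set shows 6 sites near 5 members that share most of their letters and lie in masked repeats.
Atp5l, chr9:44921738-44921777, minus strand: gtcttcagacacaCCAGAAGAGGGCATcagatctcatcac
Atp5l, chr9:44919017-44919056, minus strand: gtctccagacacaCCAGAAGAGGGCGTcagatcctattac
Ndufb10, chr17:24726031-24726070, plus strand: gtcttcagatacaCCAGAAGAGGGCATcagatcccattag
Ndufa3, chr7:3617028-3617067, plus strand: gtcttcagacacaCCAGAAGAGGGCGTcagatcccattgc
Ndufs7, chr10:80245061-80245100, minus strand: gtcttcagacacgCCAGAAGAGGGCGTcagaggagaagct
Atp5b, chr10:128080725-128080764, minus strand: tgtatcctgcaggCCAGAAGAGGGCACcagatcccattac

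CTCF lay within 5 kb of the start of 38 of the 80 subunit genes (47.5%; 95% Wilson interval 36.9 to 58.3, which covers counting error only), against 38.2% of all autosomal protein-coding genes. The background lies inside the members' interval. Within 1000 bp the members stood at 20% (16 genes; interval 12.7 to 30.05) against 21.1% of all genes, and within 20 kb at 67 of 80 genes (interval 74.2 to 90.3) against 67.0%. In this list the gap to the background thus stood beyond the first 1000 bp; the pool lists, given below, stood above it within 1000 bp too, by less than the counting error. A nearest summit beyond 1000 and within 5000 bp was present for 22 members (27.5%, interval 18.9 to 38.1) against 17.1% of all genes, and one beyond 5000 and within 20000 bp for 29 members against 28.8%. No test was made, and a share whose interval holds the background value is not told apart from it here. The median distance from start to nearest summit was 6572 bp for members (quartiles 1932 and 17184) and 9401 bp for all genes (quartiles 1592 and 29443).

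**Figure D1:**
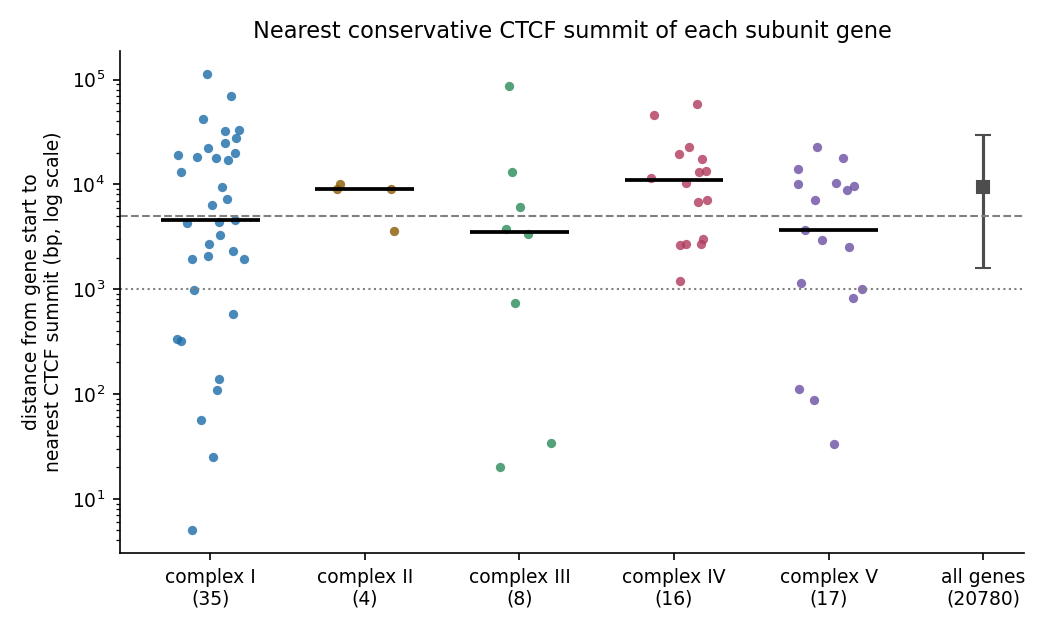
Distance from each gene start to the nearest conservative CTCF summit (bp, log scale), 1 point per subunit gene by complex, with the median as a bar; the square and its bars give the median and quartiles of all 20780 genes. The dashed line marks 5000 bp and the dotted line 1000 bp: no member of complexes II and IV lies under the dotted line, while members of complexes I, III and V reach down to 5, 20 and 33 bp.

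The 51 different summits within 5 kb of members were each near 1 member only. A single summit was present at 27 members (33.75%), against 27.8% of all genes, and 2 summits at 9 members (11.25%), against 8.38%. Uqcrh, the hinge protein of complex III, and Atp5l, subunit g of the ATP synthase, had 3 each. The share of members with 2 or more was 13.75%, and its interval (7.85 to 23.0) holds the 10.4% of all genes. The median strength of the 51 summits was 403.8 (quartiles 168.8 and 543.96). For summits within 5 kb of any coding start it was 233.0 (quartiles 110.1 and 436.0). Strength is a score deposited by the authors, and its scale is not stated. Of the 51, 23 (45.1%, interval 32.3 to 58.6) lay above the upper quartile of summits near coding starts. With only the stronger 21082 peaks, 31 of 80 members (interval 28.8 to 49.7) kept a summit within 5 kb, against 21.1% of all genes. Below the lower quartile of strengths near coding starts lay 8 of the 51 (15.7%, interval 8.17 to 28.01).

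Complex I, the NADH dehydrogenase, had a summit within 5 kb of 18 of 35 members (51.4%, interval 35.6 to 67.0). Its catalytic core of 7 nuclear subunits, among them those that carry the flavin and the iron-sulfur clusters, had one at 5 of 7, and the other 28 members at 13. Ndufs1, an iron-sulfur subunit, had one of 569.8 at 4384 bp before its start. For Ndufs7, which carries an iron-sulfur cluster, a site matching the consensus at every base lay 3280 bp before the start (550.7), and a weaker repeat site lay at 4041 bp (153.2). Ndufv1, which binds the flavin, and Ndufv2, its iron-sulfur partner, had theirs close to the start, 139 bp before it (479.1) and 338 bp before it (499.2). Ndufs3 and Ndufs8 were the core genes without one, with nearest summits at 12981 and 22410 bp.

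Accessory complex I subunits held some of the strongest promoter peaks of the whole set. Ndufc1 had a summit 56 bp before its start at 595.6 (332.8 in pool E's list and 266 in pool F's), and Ndufb7 one at 5 bp before it at 591.0 (335.9 and 254.7 in the same lists). Ndufa6 followed at 109 bp (584.4) and Ndufb10 at 25 bp (550.6). Ndufa3 had a weaker one at 322 bp before the start (227.9). Those of Ndufa12 (294.0) and Ndufa13 (435.4), a subunit also studied as a cell death regulator, lay 579 and 974 bp into the genes. At the other end, the nearest summit to Ndufa4 was 113876 bp away, the farthest of all 80 members. Its paralogue Ndufa4l2, known from hypoxia, had a summit 2671 bp before its start (166.3). Ndufa2 was the member just inside the 5 kb limit of the whole set, at 4565 bp.

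Complex II, succinate dehydrogenase, which also works in the citrate cycle, had a summit within 5 kb of 1 of 4 members (25%, interval 4.56 to 69.9) and none within 1000 bp in the conservative list. Sdhb, its iron-sulfur subunit, had that summit 3571 bp into the gene at 492.3 (296.5 in pool E's list and 192.2 in pool F's). For Sdha, the flavoprotein, and Sdhc and Sdhd, the membrane anchors, the nearest summits lay at 9045, 8945 and 10066 bp. All 4 genes lay within 20 kb of a summit.

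Complex III, the cytochrome bc1 complex, had a summit within 5 kb of 5 of 8 members (62.5%, interval 30.6 to 86.3). Uqcrfs1, the Rieske iron-sulfur protein, had the strongest at 579.8, 3714 bp before its start. The core proteins Uqcrc1 and Uqcrc2 had theirs 20 bp and 34 bp before the starts, at 563.4 and 318.2. Uqcr11, a small subunit, had one 3324 bp into the gene (354.7). Uqcrh had 3, of which the nearest lay 738 bp into the gene (88.3) and the strongest 815 bp before the start (285.1). Uqcr10 was the member just outside the limit at 6090 bp, and Uqcrb had its nearest conservative summit 86393 bp away.

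Complex IV, cytochrome c oxidase, had a summit within 5 kb of 5 of 16 members (31.2%, interval 14.2 to 55.6) and within 1000 bp of 0 of 16 (interval 0 to 19.4) in the conservative list. The pool F list likewise gave 0 of 16 within 1000 bp, while the pool E list gave 3, Cox4i1 at 330 bp, Cox5a at 773 bp and Cox6a1 at 192 bp. Cox6a1, the broadly expressed isoform of subunit VIa, had the strongest summit of all 80 members, 1193 bp into the gene at 599.6 with a match to the consensus at every base. Cox8b followed at 571.5, 2990 bp before its start. Cox5a had summits on both sides, 3953 bp before (481.2) and 2691 bp after the start (403.8). The median nearest distance of 10965.5 bp was the longest of the 5 complexes, against 4565 bp for complex I, 8995 bp for complex II, 3519 bp for complex III and 3670 bp for complex V; Cox7c was farthest at 58066 bp.

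Several subunits have tissue-specific isoforms, and 2 isoforms enriched in heart and skeletal muscle, Cox7a1 and Cox8b, had a strong summit within 5 kb. That of Cox7a1 lay 2653 bp before the start at 473.6 (291.9 in pool E's list and 182.5 in pool F's), and that of Cox8b had 351.9 and 221.5 in those lists. Their broadly expressed counterparts Cox7a2 and Cox8a had nearest summits at 19677 and 17376 bp. Cox7a2l, which helps join complexes III and IV into supercomplexes, had a weak one 2705 bp into the gene (61.1) that neither pool list held. Cox6a1, also broadly expressed, had the strong summit described above. These isoforms had none within 5 kb in the conservative list: Cox4i1 at 10389 bp, Cox4i2, known from lung, at 11542 bp, Cox6b1 at 6754 bp, and Cox6b2, Cox7b2 and Cox8c, known mainly from testis, at 12966, 45933 and 13352 bp. These are single genes, and their levels of expression were not measured here.

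Complex V, the ATP synthase, had a summit within 5 kb of 9 of 17 members (52.9%, interval 31.0 to 73.8). Of the F1 head and central stalk genes, 3 of 5 had one: Atp5b (beta; 241.1 at 2520 bp before the start), Atp5c1 (gamma; 232.0 at 87 bp before it) and Atp5d (delta; 360.1 at 2922 bp into the gene). Among the 3 genes that encode the same c ring protein with different targeting peptides, Atp5g2 had a summit 1144 bp into the gene at 577.1, while Atp5g1 and Atp5g3 had their nearest at 10308 and 13913 bp. In the peripheral stalk, 2 of 4 had one, Atp5f1 (121.5 at 817 bp before the start) and Atp5o (490.5 and 439.1, both before the start). Atp5mpl, a small membrane subunit, had the strongest of the complex at 587.6, 111 bp before its start, and Atp5k, subunit e, one of 537.4 at 33 bp before it. Atp5j2, subunit f, was farthest at 22800 bp.

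The 5 complexes could not be told apart by these shares. In the conservative list, each interval overlapped every other and held the background of 38.2%. In the pool F list, those of complex I (35.6 to 67.0) and complex V (36.0 to 78.4) lay above its background of 32.2%. With 4 members, the interval of complex II ran from 4.56% to 69.9%. No test between complexes was made.

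**Figure D2:**
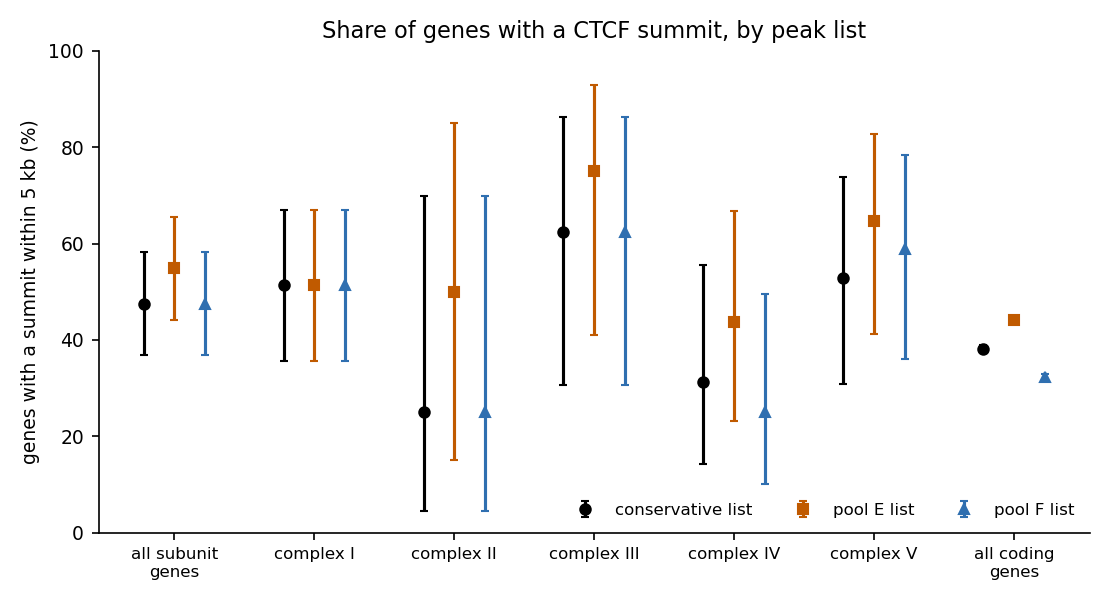
Share of genes with a CTCF summit within 5 kb of the start (%), with 95% Wilson intervals, for all subunit genes, each complex and all coding genes, in the conservative list and the pool E and F lists. Subunit genes stand at 47.5%, 55% and 47.5% in these lists, against 38.2%, 44.2% and 32.2% of all genes, and the intervals of the complexes overlap.

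Close to the start, the members' summits in the conservative list lay on 1 side. All 12 summits within 500 bp of a member's start lay before it, at 12 of 80 genes (15%, interval 8.79 to 24.4) against 9.56% of all genes. Up to 500 bp into the gene there were 0 of 80 (interval 0 to 4.58) against 6.93% of all genes, where 42.0% of the 3457 summits within 500 bp lay after the start. This split was chosen after the values were seen. The pool F list also had 0 members with a summit up to 500 bp after the start, against 4.85% of all genes, while the combined list had 2 (2.5%, against 9.18%) and the pool E list 3 (interval 1.28 to 10.5, against 9.87%), among them Uqcrb and Atp5j. Up to 500 bp before the start these lists had 13, 16 and 17 members, against 7.88%, 11.5% and 11.5% of all genes. Within 5 kb, 34 of the 51 summits (66.7%, interval 53.0 to 78.0) lay before the start, against 53.9% for all genes. Motif orientation showed no such side: of 38 summits with a motif, the motif pointed into the gene at 21 (55.3%, interval 39.7 to 69.9). Orientation was not counted for the motif-bearing summits near all coding starts.

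**Figure D3:**
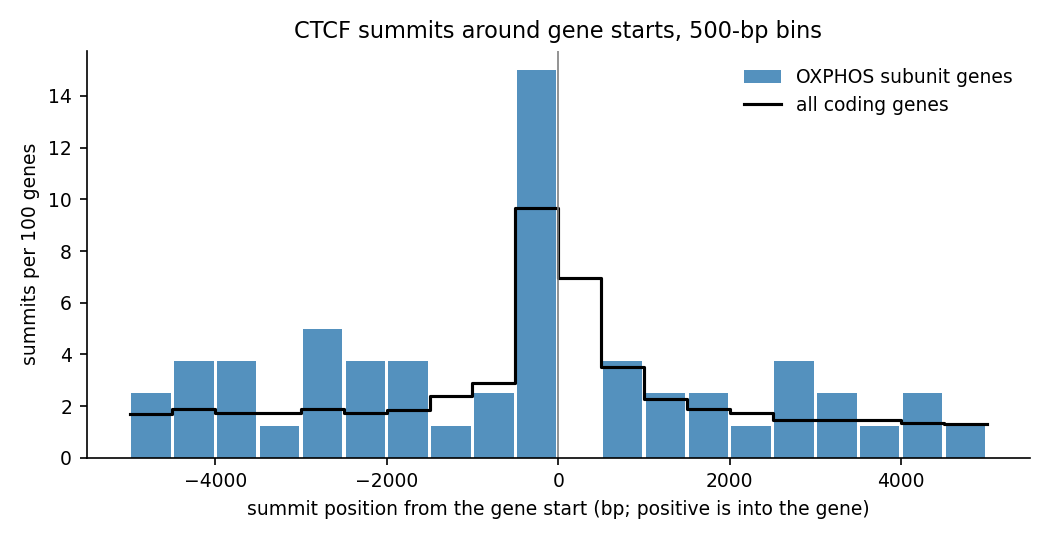
Conservative CTCF summits per 100 genes in 500-bp bins from 5000 bp before to 5000 bp after the gene start; bars are the subunit genes and the line all coding genes. The bin just before the start holds 15 per 100 subunit genes against 9.65 per 100 genes, and the bin just after it holds 0 against 6.97.

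By annotation, 19 of the 51 summits lay in promoters (within 1000 bp of any gene start), 17 in introns, 11 between genes and 4 in exons. A member was the nearest coding gene at 41. The others were nearer to a neighbour such as Kin, which shares the Atp5c1 promoter. Neither the places nor the nearest genes were counted for the 9115 summits near any coding start. A second coding start pointing away, at or before the member's own start, lay within 1000 bp of 18 members. Of these, 7 had a summit within 5 kb (38.9%, interval 20.3 to 61.4), against 31 of 62 others (50%, interval 37.9 to 62.1). Both intervals hold the 38.2% of all genes. How many of all genes have such a second start was not counted. Members with an opposite start inside the gene, such as Atp5j with Gabpa, were among the 62 others. The gene body held a summit for 24 members (30%, interval 21.1 to 40.8) against 46.6% of all genes; members are shorter, with a median length of 7565 bp against 17633.5 bp.

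Subunit genes more often have CpG-rich promoters, but within 5 kb the members above their background were those with CpG-poor ones. Over the 1000 bp around the start, 58 of 80 members (72.5%, interval 61.9 to 81.1) had over 50% G and C and an observed to expected CpG ratio over 0.6, against 45.7% of all genes. Among these, 26 of 58 (44.8%, interval 32.7 to 57.5) had a summit within 5 kb, against 51.0% of CpG-rich genes. The 22 other members missed either or both limits and are called CpG-poor here. Of these, 12 had one (54.5%, interval 34.7 to 73.1), against 27.4% of CpG-poor genes. Cox7a1, Cox8b, Ndufs7 and Ndufb10 were among these 12. Ndufs7 had a CpG ratio of 0.96 and missed only the limit on G and C. Within 1000 bp, 12 of the CpG-rich members had a summit (20.7%, interval 12.3 to 32.8), against 33.1% of CpG-rich genes. Of the CpG-poor members, 4 had one there (18.2%, interval 7.31 to 38.5), and this interval holds the 11.1% of CpG-poor genes.

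Members were also grouped by the density of genes around them. In the densest of 5 classes, with 9 to 25 other coding starts within 100 kb, 14 of 21 members had a summit within 5 kb (66.7%, interval 45.4 to 82.8), against 44.0% of genes of that class. In the sparsest class, with 0 or 1, it was 3 of 10 (30%, interval 10.8 to 60.3) against 37.0%. The 3 classes between stood at 8 of 21, 7 of 14 and 6 of 14, against 37.0%, 36.8% and 37.5%. The intervals of the 5 classes overlap. Weighted to the members' own classes of gene density, the background was 38.9%. It was not weighted by promoter CpG, by which the shares of all genes lay farther apart (51.0% of CpG-rich and 27.4% of CpG-poor genes). The part of gene density in the members' share was not tested.

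Subunit genes sat in shorter intervals between summits. The nearest summits on both sides of the start lay a median of 34.7 kb apart for members (quartiles 14.7 and 61.1) and 54.2 kb for all genes (quartiles 24.1 and 131.9). Taking the nearest motif-bearing summit on each side, the motifs pointed toward each other around 16 members (20%, interval 12.7 to 30.05) against 29.7% of genes. They pointed apart around 20 members (25%) against 24.6%, and in the same direction around 44 (55%, interval 44.1 to 65.4) against 45.7%.

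A CTCF motif with at most 2 mismatches was present at 38 of the 51 summits (74.5%, interval 61.1 to 84.5), against 64.0% of summits near any coding start. All 14 bases matched at 6 of them, as printed above for Cox6a1, Ndufs7, Ndufa7 and Ndufv2. Within 1000 bp of the start 10 of 17 summits had a motif (58.8%, interval 36.0 to 78.4) against 49.6%, and beyond it 28 of 34 (82.4%, interval 66.5 to 91.7) against 77.2%. Several of the strongest promoter peaks had none, such as Ndufb7 with 3 mismatches and Atp5mpl with 3. Counting motif-bearing summits alone, 29 of 80 members had one within 5 kb, against 26.8% of all genes.

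Repeats carried a larger part of the members' summits. The base at the summit was soft-masked as repeat in the RefSeq assembly at 15 of 51 summits (29.4%, interval 18.7 to 43.0), against 14.5% of the 9115 summits near any coding start. Each of the 15 had a motif, against 23 of the 36 unmasked ones. The motif share of masked summits near any coding start was not counted, so this is not shown to be particular to members. Masked summits were weaker, with a median strength of 195.0 and a range from 66.1 to 492.3, against 480.2 for unmasked ones; near any coding start the medians were 146.7 and 258.9. Only 2 of the 15, at Ndufa3 and Atp5f1, lay within 1000 bp of a start. Without masked summits, an alternative chosen after seeing the data, 31 of 80 members (interval 28.8 to 49.7) had a summit within 5 kb, against 34.2% of all genes.

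**Figure D4:**
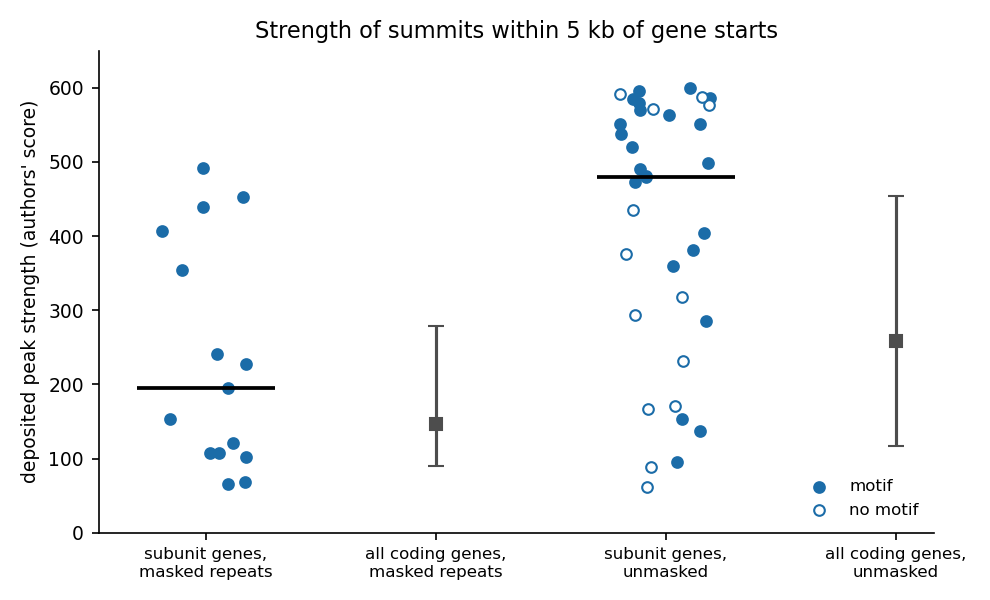
Deposited strength of summits within 5 kb of gene starts, in masked repeats and outside them; circles are the summits near subunit genes (filled with a motif, open without), bars their medians, and squares with bars the median and quartiles for all coding genes. Each of the 15 masked summits has a motif, and their median is 195.0 against 480.2 for the 36 unmasked ones. The motif share of masked summits near all coding genes was not counted.

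A group of 6 of these sites, the third set printed above, shared much of its sequence. Compared over 40 bases without gaps, the site before Atp5l shared 36 bases with those at Ndufa3 and Ndufb10, 35 with the site inside Atp5l, 30 with that at Ndufs7 and 28 with that at Atp5b, on chromosomes 7, 9, 10 and 17. The median pair of the 38 motif windows near members shared 17 bases. Their strengths were 241.1 at Atp5b, 227.9 at Ndufa3, 153.2 at Ndufs7, 108.0 at Ndufb10 and 68.3 and 66.1 at Atp5l, with a median of 130.6 against 476.4 for the other motif summits near members. Near any coding start, 376 of 5833 motif windows shared 28 or more bases with it, of which 95.2% were masked. That limit was set after the sequences were seen and the window was picked from the members, so the counts of members and of all genes are not compared. Mouse short interspersed repeats are known to carry CTCF motifs; the family of these copies was not looked up, and how reads from alike copies were placed is not given in the sources used here.

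The pool lists differed in length, and members were found in both more often than genes at large. The pool E list placed a summit within 5 kb of 44 members (55%, interval 44.1 to 65.4) against 44.2% of all genes, and that of pool F of 38 (47.5%, interval 36.9 to 58.3) against 32.2%. Within 1000 bp these counts were 26 of 80 (32.5%) for pool E and 17 of 80 for pool F, against 26.4% and 16.6% of all genes. The combined list gave 44 (55%, interval 44.1 to 65.4) against 43.6%. In both pool lists 36 members had one (45%, interval 34.6 to 55.9) against 31.1% of all genes, and each of these 36 was also among the 38 of the conservative list.

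A further 8 members had a summit within 5 kb in the pool E list alone (10%), against 13.1% of all genes. They were Ndufv3 at 565 bp, Sdhd at 203 bp, Uqcrb at 263 bp, Cox4i1 at 330 bp, Cox6b1 at 1862 bp, Cox7b2 at 2479 bp, Atp5e at 164 bp and Atp5j at 100 bp. In the pool F list alone there were 2 (2.5%), Ndufa6 at 106 bp and Atp5g3 at 78 bp, against 1.15% of all genes. Pool E and pool F are 1 sample each, so the difference between them has no replicate check.

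Strength ranked the shared peaks alike in the pools. At a reciprocal overlap of 50%, 45 of the 51 conservative peaks near members had a partner in the pool E list (88.2%, against 87.7% of all autosomal peaks) and 39 in that of pool F (76.5%, interval 63.2 to 86.0, against 66.2%). For the 36 with both, strengths ran from 66.9 to 351.9 with a median of 288.0 in pool E, and from 20.1 to 266 with a median of 182.4 in pool F. Spearman's rho over these 36 peaks was 0.918, as a description of peaks that share 1 control and were kept for ranking alike. The paired inputs of the conservative list are not named; the strengths of the first matched the ranked pool E list at 76.2% of peaks and those of the second the ranked pool F list at 60.5%. The log2 ratio of the first to the second input had a median of 0.83 near members (SD over peaks 0.42, from 0.25 to 1.95) and 1.03 over all autosomal peaks (SD 0.40).

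**Figure D5:**
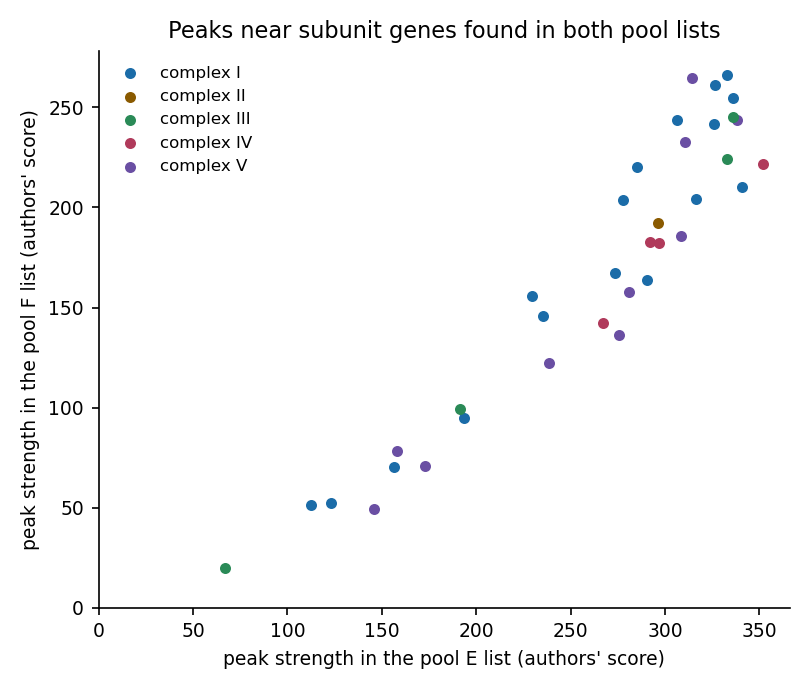
Peak strength (authors' score) in the lists of pool E and of pool F for the 36 peaks near subunit genes with a partner in both, coloured by complex. The points rise together from 66.9 and 20.1 at Uqcrh to the peaks over 300 in pool E, and each has the higher score in pool E.

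Some very strong candidates did not pass the irreproducible discovery rate (IDR), a measure of how alike a peak ranks in a pair of inputs, which the lists limit to 0.05. The peak at the Ndufa6 start was absent from the thresholded pool E list although the ranked pool E list held it at 337.6, with an IDR of 0.119. The strong peak inside Cox6a1 was absent there too, at 337.9 and an IDR of 0.0757. In the conservative ranking, candidates of 719.8 at 1979 bp before Ndufa4l2 and of 645.7 at 3148 bp before Sdhb failed at IDRs of 0.120 and 0.128. The thresholded pool F list did hold a summit 3154 bp from the Sdhb start. Over the autosomes, 38 ranked candidates were stronger than the strongest conservative peak (684.0), and 0 of them passed. Among the 107 failed candidates near members, these 2 were the ones above the median strength of the called summits there, and the median was 24.4.

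Weak candidates lay near most members without a summit. Of these 42 members, 32 (76.2%, interval 61.5 to 86.5) had a ranked candidate within 5 kb that did not reach the conservative list, against 43.0% of all genes without a summit. The strongest candidate of each ranged from 14.3 at Atp5j2 to 86.6 at Sdhd, with a median of 29.7. Some of them had a summit in another list: the combined list held one for 7 of the 42, and the members called in a single pool are given above. A member without a summit lacks a peak at the threshold of the conservative list, which does not show the absence of CTCF.

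Other genes of the pathway had CTCF near their starts at similar or higher shares. Of 42 genes for assembly factors, electron carriers and subunits that the symbols miss (Cyc1 of complex III and Ndufab1 of complex I, both with a summit), 24 had a summit within 5 kb (57.1%, interval 42.2 to 70.9) and 17 within 1000 bp (40.5%, interval 27.0 to 55.5), against 38.2% and 21.1% of all genes. The strongest were Ndufaf4, a complex I assembly factor (598.2 at 55 bp before its start), Cox19, which acts in copper delivery to complex IV (576.6 at 4014 bp before it), and Sco2, a copper chaperone of complex IV (564.4 at 328 bp before it). Of 11 regulators of mitochondrial gene expression, 7 had a summit within 5 kb (63.6%, interval 35.4 to 84.8, which holds the 38.2% of all genes). Gabpa, Gabpb1, Tfam and Yy1 had none in the conservative list, with nearest summits at 17246, 12640, 12194 and 18391 bp. The coactivator genes Ppargc1a and Ppargc1b had summits of 116.7 at 1887 bp and 162.0 at 10 bp into the genes. Nrf1 had one of 145.5 at 42 bp into the gene, Esrra, a nuclear receptor gene, one of 527.4 at 2799 bp before its start, and Ppara, a regulator of fatty acid use, one of 203.2 at 613 bp into the gene. For the mitochondrial transcription genes Polrmt and Tfb2m they were 231.8 at 45 bp before the start and 173.2 at 4529 bp into the gene.

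Other large sets of housekeeping complexes stood at similar or higher shares. Subunit genes of oxidative phosphorylation stood at 47.5% within 5 kb, against 60.5% of 76 cytosolic ribosomal protein genes (interval 49.3 to 70.8), 50% of 78 mitochondrial ribosomal protein genes (interval 39.2 to 60.8) and 47.4% of 38 proteasome subunit genes (interval 32.5 to 62.7). The share of all genes, 38.2%, lay below the intervals of both ribosomal sets and inside those of the members and the proteasome genes. The intervals of the sets overlap, and no test was made.

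Promoter letters of the classical mitochondrial regulators were also counted, in the RefSeq promoters (GRCm38.p6; 250 bp before to 50 bp after the start) that matched 64 of the 80 members. The NRF1 core CGCATGCG, a palindrome, occurred in 9 of the 64 (14.1%) against 2.92% of 15687 promoters. The YY1 letters AAGATGGC, on either strand, occurred in 10 (15.6%) against 3.63%, and the ETS letters CCGGAAGT, bound by GABP, in 5 (7.81%) against 6.04%. Of the 31 matched members with a CTCF summit within 5 kb, 6 held the NRF1 core, 4 the YY1 letters and 2 the ETS letters, against 3, 6 and 3 of the 33 without one. A match is a string of letters and does not show binding.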

How the data were processed

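The 4 libraries were grouped as pool E and pool F per the labels, with the technical replicates merged in the deposited lists; a spread between replicates is thus lacking. Strength is a peak score from the authors, of unstated scale, and served to describe and rank peaks within a list. In the ranked lists the authors give the −log10 of each IDR, and the thresholded lists keep peaks at an IDR of 0.05 or less. Aligner, peak caller and versions are not given in the sources used here. Read depth is unknown.

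Distances ran from the 5′ end of each gene in GENCODE M21 to the summit; positive ones point into the gene. Of symbols with several entries the one beginning most 5′ was used; a second Atp5o entry began 8375 bp from its nearest summit. The motif was the CTCF consensus with at most 2 mismatches and its centre within 50 bp of the summit, read from the RefSeq genome GRCm38.p6. Masked summits are at lower-case bases of that assembly. Shares carry 95% Wilson intervals and stand beside the share of all 20780 autosomal protein-coding genes; no test between groups was run. The distance and motif steps were tested on simulated data. Python 3.11.15, numpy 2.4.6, scipy 1.17.1, pysam 0.24.0 and matplotlib 3.10.9 were used.

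The rule for members uses no measured value, but the set and the lists were proposed with earlier results of these data known. Genes were named by a rule: each member with a summit within 1000 bp; in each complex the 3 with the strongest summit within 5 kb and the one farthest from a summit; those just inside and outside 5 kb; those called in 1 pool only; isoforms; the complex I core; the 3 strongest other pathway genes; and each regulator with a summit. A member that the rule names is counted but not reported here. Further names are examples chosen after their values were seen. Alternatives were the other lists, the stronger 21082 peaks, windows of 1000 and 20000 bp, any coding transcript start, motif-bearing or unmasked summits, other motif rules and other overlaps.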

Additional observations from a re-analysis of the deposited data

How the results depend on the processing

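No paired analysis was possible because each list merges the technical replicates and no list gives values per replicate; leaving out a replicate was not possible for the same reason. The share of members with a summit within 5 kb (47.5%) kept inside its interval with the combined list, either pool's list, the stronger peaks, any transcript start and unmasked summits. It moved to 20% with a window of 1000 bp, 83.8% with 20000 bp and 36.2% with motif-bearing summits only. The background of all genes moved under each alternative, to 43.6% with the combined list, 44.2% with pool E, 32.2% with pool F, 21.1% with the stronger peaks, 21.1% at 1000 bp, 67% at 20000 bp, 42.8% with any transcript start, 26.8% with motif-bearing and 34.2% with unmasked summits. At 1000 bp complexes I, II, IV and V stood at 25.7%, 0%, 0% and 23.5%, and at 20000 bp complexes I to V at 77.1%, 100%, 87.5%, 81.2% and 94.1%. Complex II fell to 0% without masked summits, since its 1 summit is masked. The median distance for members stayed between 3627 and 8891 bp, within the interval of 3280 to 10066 bp around 6572. With at most 1 mismatch, 33.3% of members' summits had a motif. The share of members' peaks with a pool F partner was 88.2% at an overlap of 1 bp and 9.8% at a reciprocal overlap of 80%. The causes of these moves, beyond the wider or narrower rules themselves, were not tested. Lists without read counts leave unknown how many of the members without a summit lacked only depth.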
